A study of Mus musculus with 6 samples.

Results

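A set of 9 genes of blood clotting and clot removal that lung cells themselves transcribe were followed through the 6 libraries, out of 49315 genes in the count table. The genes were taken by name and divided by role. The 2 procoagulant members were F3 and F8, the 3 anticoagulant members were Thbd, Procr and Tfpi, and the 4 members of the plasminogen system were Plat, Plau, Plaur and Serpine2. All 9 were found by name, and each had at least 11 reads in every library.

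Clotting starts when tissue factor, a membrane protein of cells around vessels, meets factor VII of the blood. The cascade that follows makes thrombin, and thrombin makes fibrin. Endothelial cells hold it back with thrombomodulin and the endothelial protein C receptor, which together turn thrombin into an activator of protein C, and with tissue factor pathway inhibitor. Fibrin is removed by plasmin, which tissue plasminogen activator and urokinase make from plasminogen. In lung injury, fibrin is deposited in the airspaces, and both systems are known to be altered there.

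Lung cells came from male C57BL/6J mice that were given either bleomycin sulfate (BLM) or sterile saline (sham) by oropharyngeal instillation, and lungs were taken on day 21. BLM is an anticancer drug that injures the lung and leads to fibrosis. Each treatment gave 1 library of unsorted cells, 1 of Lamp1-depleted cells and 1 of Lamp1-enriched cells. The sort used Lamp1, a lysosomal membrane protein, where it was exposed on the surface of living cells, after red blood cells had been lysed. According to the methods, 2 to 3 lungs of a group were pooled per tube. The libraries are thus pools of mixed cells with no replicate of any condition. Fewer cells of a type and less RNA per cell cannot be told apart in them.

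The libraries held between 30236120 and 52918696 counted reads, and between 17870 and 21842 genes reached 10 reads. The BLM Lamp1-depleted library stood apart, because 38.4% of its reads fell on the single gene Gm26917, against 0.884% to 7.10% in the others. This left 18636423 reads outside that gene, the smallest number of the 6 libraries. Levels below are counts scaled to library size (CPM) after correction by edgeR TMM factors, and this library had the lowest factor, 0.699. The summed CPM of 10 endothelial markers was 5704, 1306 and 8985 in unsorted, Lamp1-depleted and Lamp1-enriched sham cells, and 3371, 925 and 8855 in the BLM libraries in the same order. All 10 endothelial markers were above 3 reads in every library. The summed CPM of 9 macrophage and monocyte markers was 2517, 1645 and 969 in the sham libraries and 20256, 2791 and 2576 in the BLM libraries.

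The start sites of 6 of the 9 members were found among RefSeq mouse promoters of build GRCm38.p6, with 7 start sites. No promoter was printed for Thbd, Plat and Plau. The 300 bases from 250 before to 50 after each start were searched on both strands for the AP-1 motif TGANTCA, the KLF motif CACCC and the GC box GGGCGG. AP-1 proteins are factors that respond to growth and injury signals, and their motif was found in F3, Procr and Plaur. It was not found in F8, Serpine2 or either start of Tfpi. Of all 32851 promoters, 7.81% held it. The stretches of these 3 genes are shown because they hold the motif, with AP-1 matches in capitals, and the motif was not related to the values.
F3 (chr3:121723337-121723536, plus strand, bases -200 to -1 from the start): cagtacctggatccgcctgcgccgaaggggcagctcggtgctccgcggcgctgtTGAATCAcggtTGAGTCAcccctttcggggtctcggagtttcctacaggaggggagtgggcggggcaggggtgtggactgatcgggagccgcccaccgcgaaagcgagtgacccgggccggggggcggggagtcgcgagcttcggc
Procr (chr2:155751017-155751116, plus strand, bases -200 to -101 from the start): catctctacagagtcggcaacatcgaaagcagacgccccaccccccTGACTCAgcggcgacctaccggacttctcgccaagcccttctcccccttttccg
Plaur (chr7:24462283-24462482, plus strand, bases -200 to -1 from the start): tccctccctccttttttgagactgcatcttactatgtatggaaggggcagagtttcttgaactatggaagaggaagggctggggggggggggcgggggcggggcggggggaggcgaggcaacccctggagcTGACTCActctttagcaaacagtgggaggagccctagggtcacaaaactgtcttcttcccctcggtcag
The RefSeq start of Procr lies inside its first GENCODE exon, so its stretch stops before that exon. The F3 stretch held 2 matches, starting at bases -146 and -135, and the Procr and Plaur stretches held the identical match TGACTCA, starting at base -154 in Procr and at base -69 in Plaur. The GC box was found 6 times in Serpine2, 3 times each in F3 and Plaur and at each start of Tfpi, and in 35.7% of all promoters. CACCC was found 4 times in F3, at Procr and at each start of Tfpi, and in 57.5% of all promoters. A match is a run of letters, and binding was not measured.

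Per kilobase of exon, Thbd was the highest member in every library, with 405 CPM per kilobase in sham unsorted and 233 in BLM unsorted cells. Plaur came next in 5 of the 6 libraries, at 18.7 to 55.3. In BLM Lamp1-enriched cells Tfpi at 20.5 and Plaur at 19.9 could not be ordered, since their counting intervals overlapped. F8, F3 and Procr were the lowest in the sham libraries, at 0.104 to 1.08 CPM per kilobase. Procr reached 5.92 in BLM unsorted cells, above Plat at 4.68 there. The plot of levels shows every value.

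**Figure D1:**
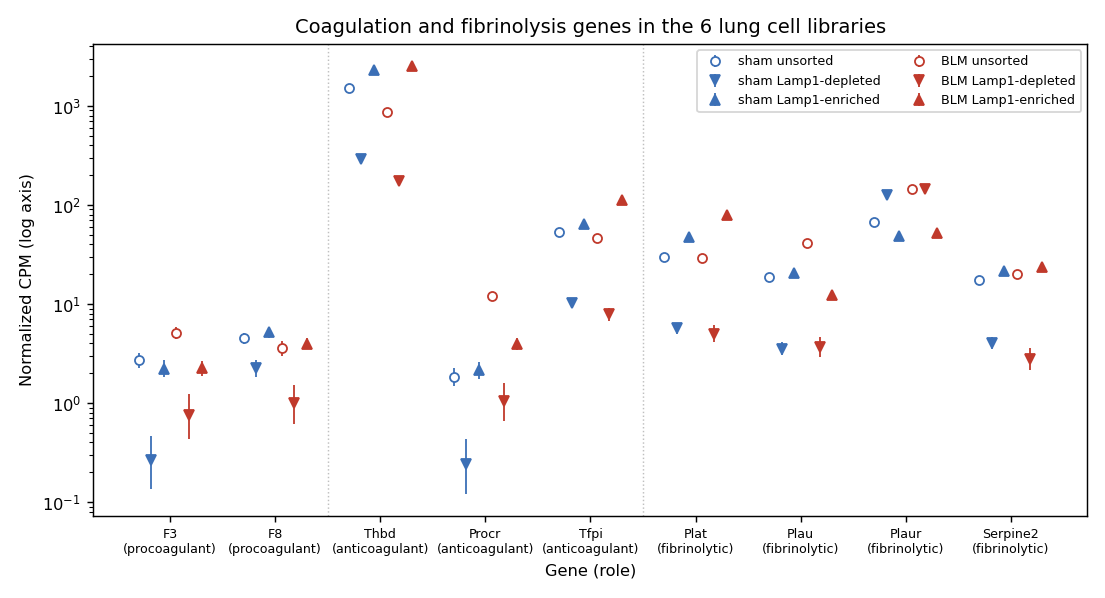
Normalized CPM (log axis) of the 9 genes in the 6 libraries, with 95% counting intervals as bars; circles are unsorted cells, downward triangles Lamp1-depleted and upward triangles Lamp1-enriched cells, in blue for sham and red for BLM. Thbd lies far above the other genes at 175 to 2552 CPM, and for every gene except Plaur the Lamp1-depleted library is the lowest of its treatment.

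The first comparison asked where these transcripts lie with respect to surface Lamp1. Of the 9 members, 8 were higher in Lamp1-enriched than in Lamp1-depleted cells in both treatments, and Plaur, the urokinase receptor, was lower in both. In sham cells 8 members were at least 2-fold higher and 1 at least 2-fold lower, where 27.5% of the 21867 genes tested were higher and 25.2% lower. In BLM cells the counts were again 8 and 1, where 34.3% of 21838 genes were higher and 22.6% lower. A fit with the treatments as blocks, by edgeR's quasi-likelihood test over the 4 sorted libraries, called 8 members higher and 1 lower at a Benjamini-Hochberg adjusted p under 0.05. It called 21.5% of 20593 genes higher and 19.2% lower. It takes its spread from 1 residual degree of freedom, that is from how far the sort ratio differed between treatments, pooled over all genes. The fractions of a treatment came from pooled lungs, and variation between mice is not in the test.

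Thbd encodes thrombomodulin, the endothelial receptor that turns thrombin from a clotting into an anticoagulant enzyme. Its reads were 73157, 13408 and 107273 in unsorted, Lamp1-depleted and Lamp1-enriched sham cells, and 34156, 3693 and 139109 in the BLM libraries in the same order. As CPM these were 1507, 294 and 2331, then 866, 175 and 2552. The Lamp1-depleted libraries were the 2 lowest and the Lamp1-enriched libraries the 2 highest. The log2 ratio of Lamp1-enriched over Lamp1-depleted cells was 2.99 in sham (95% counting interval 2.96 to 3.01) and 3.87 in BLM (3.82 to 3.92). The edgeR fit gave a log2 fold change of 3.33 (SE 0.50, adjusted p = 2.71e-10). Thbd lies at chr2:148404466-148408188 on the minus strand (GRCm38), in 1 exon of 3723 bases.

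Tfpi encodes tissue factor pathway inhibitor, which blocks the complex of tissue factor and factor VII. It had 53.2, 10.2 and 64.7 CPM in unsorted, Lamp1-depleted and Lamp1-enriched sham cells and 46.6, 7.86 and 112 CPM in the BLM libraries, from 166 to 6098 reads. BLM Lamp1-enriched cells were the highest, and the Lamp1-depleted libraries the lowest. Its log2 sort ratio was 2.66 in sham (2.52 to 2.81) and 3.83 in BLM (3.61 to 4.06), with a fitted log2 fold change of 3.14 (SE 0.37, edgeR adjusted p = 1.16e-15). Tfpi lies at chr2:84432855-84476775 on the minus strand.

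Procr encodes the endothelial protein C receptor, which presents protein C to thrombin bound by thrombomodulin. It was rare, with 89, 11 and 98 reads in unsorted, Lamp1-depleted and Lamp1-enriched sham cells and 474, 22 and 214 reads in the BLM libraries. In CPM these were 1.83, 0.241 and 2.13, then 12, 1.04 and 3.93. Here the unsorted BLM library was the highest, and all 3 BLM libraries exceeded their sham counterparts. The log2 sort ratio was 3.09 in sham (2.24 to 4.19) and 1.90 in BLM (1.28 to 2.62), and the edgeR fit gave 2.38 (SE 0.67, adjusted p = 0.00157). A different fit, which took in the unsorted libraries but left out sham Lamp1-enriched cells, put Procr at 1.66 and did not call it. Procr lies at chr2:155751117-155755471 on the plus strand.

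F3 encodes tissue factor, the trigger of clotting. It had 132, 12 and 102 reads in unsorted, Lamp1-depleted and Lamp1-enriched sham cells and 202, 16 and 122 reads in the BLM libraries. The CPM values were 2.72, 0.263 and 2.22, then 5.12, 0.757 and 2.24, so that both Lamp1-depleted libraries were lowest and BLM unsorted cells were highest. The log2 sort ratio was 3.02 in sham (2.21 to 4.07) and 1.55 in BLM (0.81 to 2.42), with a fitted value of 2.20 (SE 0.74, edgeR adjusted p = 0.00940). A different fit, with the unsorted libraries and without sham Lamp1-enriched cells, put F3 at 1.64 and did not call it. F3 lies at chr3:121723537-121735048 on the plus strand.

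F8 encodes factor VIII, the cofactor of factor IX that circulates bound to von Willebrand factor. It had 219, 103 and 240 reads in unsorted, Lamp1-depleted and Lamp1-enriched sham cells and 141, 21 and 217 reads in the BLM libraries, or 4.51, 2.26, 5.22, 3.57, 0.994 and 3.98 CPM in that order. Each unsorted library lay close under its Lamp1-enriched library. The log2 sort ratio was 1.2 in sham (0.87 to 1.55), the smallest of the 8 members that were higher, and 1.99 in BLM (1.35 to 2.72). The edgeR fit gave 1.49 (SE 0.55, adjusted p = 0.0188). Different fits, which took in the unsorted libraries and left out 1 library each, did not call F8 in 3 cases. It was at 1.65 without sham Lamp1-enriched, 1.11 without BLM Lamp1-depleted and 1.38 without BLM Lamp1-enriched cells. F8 lies at chrX:75172715-75382615 on the minus strand and shares no exon base with the 3 genes inside its span.

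Among the fibrinolytic members, Plat encodes tissue plasminogen activator, the activator that works on fibrin. It had 29.8, 5.66 and 47.4 CPM in unsorted, Lamp1-depleted and Lamp1-enriched sham cells and 29.2, 5.02 and 78.3 CPM in the BLM libraries, from 106 to 4266 reads. The unsorted libraries of the 2 treatments were nearly level, while the highest value was in BLM Lamp1-enriched cells. The log2 sort ratio was 3.06 in sham (2.88 to 3.26) and 3.96 in BLM (3.69 to 4.26), and the fit gave 3.41 (SE 0.38, edgeR adjusted p = 1.65e-17). Plat lies at chr8:22757727-22782844 on the plus strand.

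Serpine2 encodes protease nexin, a cell-bound inhibitor of thrombin and of both plasminogen activators. It had 17.3, 4.06 and 21.5 CPM in the sham libraries and 20, 2.79 and 23.5 CPM in the BLM libraries, in the order unsorted, Lamp1-depleted, Lamp1-enriched, from 59 to 1282 reads. Its log2 sort ratio was 2.40 in sham (2.18 to 2.64) and 3.07 in BLM (2.70 to 3.48), with a fitted 2.63 (SE 0.41, edgeR adjusted p = 1.64e-09). Serpine2 lies at chr1:79794197-79861180 on the minus strand.

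Plau encodes urokinase, the plasminogen activator that acts on cell surfaces. It had 909, 162 and 938 reads in unsorted, Lamp1-depleted and Lamp1-enriched sham cells and 1613, 78 and 675 reads in the BLM libraries. The CPM values were 18.7, 3.55 and 20.4, then 40.9, 3.69 and 12.4. The BLM unsorted library held the highest level, and the Lamp1-enriched library was lower in BLM than in sham. The log2 sort ratio was 2.52 in sham (2.28 to 2.77) and 1.74 in BLM (1.41 to 2.10), and the edgeR fit gave 2.05 (SE 0.42, adjusted p = 9.7e-06). A different fit, with the unsorted libraries and without sham Lamp1-enriched cells, put Plau at 1.35 and did not call it. Plau lies at chr14:20836660-20843385 on the plus strand.

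Plaur, the receptor that holds urokinase on the cell, ran the other way. Its reads were 3242, 5728 and 2249 in unsorted, Lamp1-depleted and Lamp1-enriched sham cells and 5710, 3034 and 2832 in the BLM libraries, or 66.8, 126, 48.9, 145, 144 and 52.0 CPM in that order. The 2 Lamp1-enriched libraries were the lowest of the 6. The log2 sort ratio was -1.36 in sham (-1.43 to -1.29) and -1.47 in BLM (-1.54 to -1.39), and the edgeR fit gave -1.51 (SE 0.35, adjusted p = 8.82e-05). The edgeR adjusted p was 0.261 when libraries were scaled by total counts only. A different fit, with the unsorted libraries and without BLM Lamp1-enriched cells, put Plaur at -1.16 and did not call it. Over the same contrast the neutrophil marker sum was 48.0 CPM in sham Lamp1-depleted and 27.8 in Lamp1-enriched cells, and 328 and 59.3 in BLM. Of 7 tested neutrophil markers, 2 were at least 2-fold lower and 1 higher in Lamp1-enriched sham cells, and 7 were lower in BLM. The macrophage and monocyte marker sum was 1645 and 969 CPM in sham and 2791 and 2576 in BLM. Of these 9 markers, 4 were at least 2-fold lower and 1 higher in sham, and 1 lower and 2 higher in BLM. The lymphocyte marker sum was 2407 and 131 CPM in sham and 828 and 47.4 in BLM. The part of these cells in the Plaur ratio was not tested. Plaur lies at chr7:24462484-24475968 on the plus strand.

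**Figure D2:**
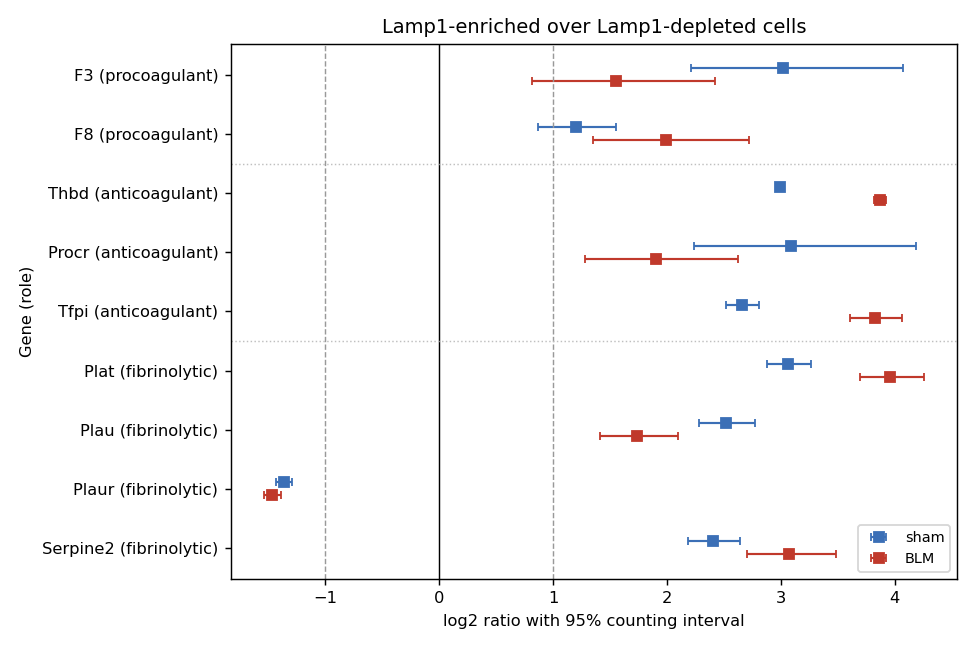
Log2 ratio of Lamp1-enriched over Lamp1-depleted cells for each gene, in blue for sham and red for BLM, with 95% counting intervals and dashed lines at 2-fold. Only Plaur lies below 0, at -1.36 and -1.47, and the BLM ratio exceeds the sham ratio for Thbd, Tfpi, Plat, Serpine2 and F8 and is smaller for F3, Procr and Plau.

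The 8 members that were higher in Lamp1-enriched cells divided by how the ratio differed between treatments. The BLM minus sham difference of the log2 sort ratio was 0.88 for Thbd (95% counting interval 0.83 to 0.93), 1.16 for Tfpi (0.90 to 1.43), 0.90 for Plat (0.56 to 1.23), 0.66 for Serpine2 (0.23 to 1.10) and 0.78 for F8 (0.06 to 1.5). It was -1.48 for F3 (-2.60 to -0.35), -1.18 for Procr (-2.27 to -0.10) and -0.77 for Plau (-1.19 to -0.36). With 1 library per condition these differences have no test. The median sort ratio of all genes was itself -0.01 in sham and 0.29 in BLM. All BLM values rest on the BLM Lamp1-depleted library, and scaling by total counts only adds 0.56 to every BLM sort ratio and -0.17 to every sham one. The differences then became -0.75 for F3, -0.46 for Procr and -0.04 for Plau, and 1.40 to 1.90 for the other 5. With counting intervals as wide as those above, F3, Procr and Plau would then all include 0. With size factors from DESeq2 the sham and BLM sort ratios were 3.03 and 1.40 for F3, 3.10 and 1.75 for Procr, and 2.53 and 1.59 for Plau. The BLM ratio was thus the smaller one there too. How far the differences of these 3 genes lie below 0 depends on the scaling. Against unsorted in place of Lamp1-depleted cells, the Lamp1-enriched log2 ratio was 0.63 in sham and 1.56 in BLM for Thbd, 0.28 and 1.26 for Tfpi, and 0.67 and 1.42 for Plat. Serpine2 stood at 0.31 and 0.24 and F8 at 0.21 and 0.16, which were thus not higher in BLM on this measure. The values were -0.29 and -1.19 for F3, 0.22 and -1.61 for Procr, and 0.12 and -1.72 for Plau.

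The Lamp1-enriched libraries also held more endothelial RNA. All 10 endothelial markers were at least 2-fold higher than in Lamp1-depleted cells in both treatments, with median log2 ratios of 3.0 and 3.45. The sums of other lists moved with the sort as well. Platelet markers summed to 1034 CPM in Lamp1-enriched against 43.2 in Lamp1-depleted sham cells and to 150 against 14.2 in BLM, with 8 of 8 at least 2-fold higher in both. Epithelial markers summed to 956 against 156 and 298 against 131, with 9 and 6 of 10 at least 2-fold higher, and fibroblast markers to 224 against 84.8 and 941 against 203, with 5 and 7 of 8. Smooth muscle and pericyte markers summed to 232 against 37.2 and 140 against 32.7, with 6 and 8 of 8. The part of these cells in the sort ratios was not tested. Per 1000 reads of the 10 endothelial markers, a measure chosen after the values were seen, Thbd gave 264, 225 and 259 reads in the sham libraries and 257, 189 and 288 in the BLM libraries, in the order unsorted, Lamp1-depleted, Lamp1-enriched. Plat gave 5.23, 4.33 and 5.28, then 8.67, 5.42 and 8.84. Tfpi gave 9.33, 7.81 and 7.21, then 13.8, 8.49 and 12.6. Thbd thus spanned 225 to 264 in sham and 189 to 288 in BLM. F8 gave 0.791, 1.73 and 0.581, then 1.06, 1.07 and 0.450, with more in Lamp1-depleted than in Lamp1-enriched cells of both treatments. Procr gave 0.321, 0.185 and 0.237, then 3.56, 1.13 and 0.443. Plau gave 3.28, 2.72 and 2.27, then 12.1, 3.99 and 1.40. F3 gave 0.477, 0.202 and 0.247, then 1.52, 0.818 and 0.253. Serpine2 gave 3.03, 3.11 and 2.39, then 5.92, 3.02 and 2.66. Procr, Plau, F3, Tfpi and Serpine2 were all highest in BLM unsorted cells on this scale.

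The second comparison asked how the members differed between BLM and sham lungs. In unsorted cells 3 members were at least 2-fold higher in BLM, namely Procr, Plau and Plaur, and 0 were at least 2-fold lower, where 13.9% of 22772 genes were higher and 16.0% lower. Procr had the largest difference, a log2 ratio of 2.70 (95% counting interval 2.38 to 3.06), which is 6.52-fold. Plau stood at 1.13 (1.01 to 1.25) and Plaur at 1.12 (1.05 to 1.18), and with total counts in place of TMM factors at 0.86 and 0.85. F3 was at 0.91 (0.59 to 1.24). Thbd was at -0.80 (-0.82 to -0.78), or at -1.06 with total counts. F8 at -0.33 (-0.65 to -0.02), Tfpi at -0.19 (-0.28 to -0.10), Plat at -0.03 (-0.14 to 0.08) and Serpine2 at 0.21 (0.06 to 0.35) were nearer to 0. The intervals cover counting error only, and no p-value can be given for these ratios.

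Marker sums moved between the same libraries. All 10 endothelial markers were below 0 in unsorted BLM over unsorted sham cells, with a median log2 ratio of -0.67, beside -0.80 for Thbd. All 9 macrophage and monocyte markers were at least 2-fold higher, with a median of 2.82, and the median of all genes was -0.07. All 8 platelet markers were at least 2-fold lower, with a median of -2.27. The part of these cells in the member ratios was not tested.

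In Lamp1-enriched cells 0 members were at least 2-fold higher and 0 lower in BLM, where 10.2% of 21671 genes were higher and 7.86% lower. The log2 ratio was 0.88 for Procr (0.53 to 1.24), 0.79 for Tfpi (0.73 to 0.85) and 0.72 for Plat (0.65 to 0.80). It was -0.72 for Plau (-0.86 to -0.57) and -0.39 for F8 (-0.66 to -0.12). Thbd at 0.13, Serpine2 at 0.13, Plaur at 0.09 and F3 at 0.01 were nearly level. The endothelial markers had a median of 0.06. Of the other lists, 7 of 9 macrophage and monocyte markers were at least 2-fold higher (median 1.44) and 3 of 4 tested mesothelial markers (2.22), while 8 of 8 platelet (-2.75) and 6 of 10 lymphocyte markers (-1.46) were lower. Their part in the member ratios was not tested.

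In Lamp1-depleted cells F3 and Procr were at least 2-fold higher in BLM and F8 at least 2-fold lower, where 13.7% of 20852 genes were higher and 22.3% lower. These calls rest on few reads. F3 had 16 reads in BLM against 12 in sham, a log2 ratio of 1.47 (0.35 to 2.74). Procr had 22 against 11 reads, a log2 ratio of 2.04 (1.0 to 3.30). F8 had 21 against 103 reads, at -1.17 (-1.94 to -0.50). Thbd was at -0.75 (-0.80 to -0.70) and Serpine2 at -0.54 (-0.99 to -0.11), and Tfpi, Plat, Plau and Plaur lay between -0.38 and 0.19. In the same libraries 7 of 7 tested neutrophil markers were at least 2-fold higher (median 2.67) and 6 of 10 lymphocyte markers lower (-1.45), and their part in the member ratios was not tested. Scaling by total counts shifts every ratio of this comparison by -0.72, and F3 was then at 0.78.

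**Figure D3:**
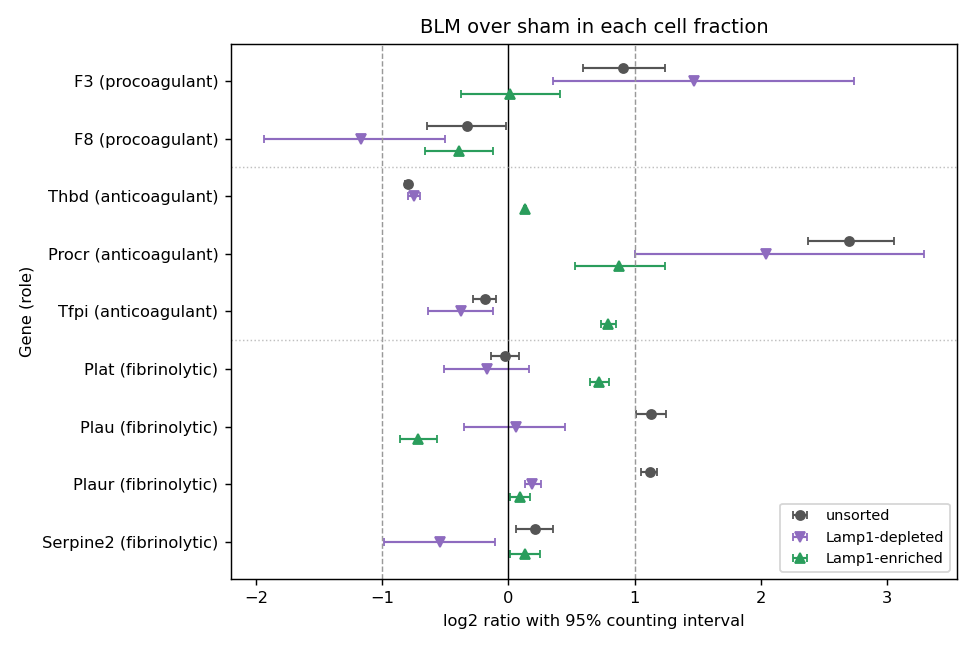
Log2 ratio of BLM over sham for each gene in unsorted (grey circles), Lamp1-depleted (purple triangles) and Lamp1-enriched cells (green triangles), with 95% counting intervals and dashed lines at 2-fold. Procr lies to the right in all 3 fractions at 2.70, 2.04 and 0.88, and Plau lies at 1.13 in unsorted but at -0.72 in Lamp1-enriched cells.

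The unsorted library would be expected to lie between its fractions if they together held all its cells in the same state. In BLM mice 3 members were above both fractions with counting intervals off 0, F3 at 2.29 times, Procr at 3.06 times and Plau at 3.30 times the higher fraction, where 15.5% of 22801 genes were. Plaur could not be ordered against Lamp1-depleted cells there, at 145 and 144 CPM. In sham mice 0 members were above both beyond counting error, where 11.8% of 23233 genes were. F3 was at 2.72 CPM in unsorted and 2.22 in Lamp1-enriched sham cells, with overlapping intervals. No member lay below both fractions, where 22.1% of genes did in sham and 18.0% in BLM. The macrophage and monocyte marker sum lay above both fractions in both treatments, at 20256 CPM against 2791 and 2576 in BLM and at 2517 against 1645 and 969 in sham. Epithelial markers summed to 403 against 131 and 298 CPM in BLM and to 1289 against 156 and 956 in sham, and mesothelial markers to 30.7 against 4.45 and 12.2 and to 23.3 against 4.83 and 5.02. The part of these cells in the level of the members was not tested.

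Among the partners in the clotting cascade, 12 of 20 other procoagulant genes could be tested between fractions by edgeR, of which 7 were higher in Lamp1-enriched cells and 3 lower, beside 21.5% and 19.2% of all genes. Vwf, the carrier of factor VIII, had 94421 reads in sham and 167708 in BLM Lamp1-enriched cells against 5359 and 3440 in Lamp1-depleted cells, with a fitted log2 fold change of 4.09. F5, which encodes the cofactor of factor X, had 6086 and 1692 reads in Lamp1-enriched against 528 and 265 in Lamp1-depleted cells, with a fitted 2.33. The cargo receptor Lman1, which carries factors V and VIII out of the endoplasmic reticulum, was at 2.09, and the membrane scramblase Ano6 at 0.85 (edgeR adjusted p = 0.0499). F10 was at -1.66 and F13a1, which cross-links fibrin, at -1.27. Within treatments, the log2 sort ratio of F13a1 was -0.11 in sham (counting interval -0.22 to 0.01) and -2.25 in BLM (-2.41 to -2.10). The fitted value of F13a1 thus rests on the BLM libraries. F7, the partner of tissue factor, had a fitted 0.82 and was not called (edgeR adjusted p = 0.198).

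In unsorted cells, F7 and F10 had the largest BLM over sham ratios among the tested genes of these lists. F7 had 217, 26 and 68 reads in unsorted, Lamp1-depleted and Lamp1-enriched sham cells and 2660, 114 and 429 reads in BLM, with log2 ratios of 3.91, 3.21 and 2.41. F10 had 213, 163 and 89 reads in sham and 1523, 394 and 221 reads in BLM, with log2 ratios of 3.13, 2.38 and 1.06. Both were thus higher in BLM in every fraction, and highest in the unsorted library. F5 was at -1.15 in unsorted and -2.09 in Lamp1-enriched cells. In unsorted cells 4 of 12 tested genes of this list were at least 2-fold higher and 1 lower, beside 13.9% and 16.0% of all genes. The median was 0.40 against -0.07 over all genes. Of the higher genes, 1 had 17 against 7 reads, with a counting interval of 0.24 to 3.09.

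Of 12 other anticoagulant genes, 10 could be tested between fractions, with 5 higher and 1 lower in Lamp1-enriched cells, beside 21.5% and 19.2% of all genes. Pros1, which encodes the cofactor of activated protein C, was at a fitted log2 fold change of 2.79, the ectonucleotidase Entpd1 at 2.38 and the lipid-binding Anxa5 at 1.09. Tfpi2, a relative of Tfpi, was at 3.12 from no more than 99 reads in a sorted library. Anxa5 was at 1.33 and Pros1 at 0.79 in unsorted BLM over sham cells, while Entpd1 had 8327 reads in both libraries. In that comparison 2 of 10 were at least 2-fold higher and 2 lower, beside 13.9% and 16.0% of all genes. Of the lower genes, 1 had 4 against 15 reads, with a counting interval of -3.66 to 0.04.

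Of 11 other fibrinolytic genes, 6 could be tested, with 2 higher and 2 lower in Lamp1-enriched cells, where 21.5% of all genes were higher and 19.2% lower. Serpinb2, an inhibitor of urokinase, was at a fitted log2 fold change of 2.25 between fractions, and Anxa2, a surface receptor for plasminogen and its activator, at 1.65. S100a10, the partner of Anxa2, was at 0.81 and not called (edgeR adjusted p = 0.0521), and Lrp1, the receptor that clears complexes of activators and inhibitors, was at -0.50 (edgeR adjusted p = 0.306). Lrp1 was at 2.14, Serpinb2 at 1.58 and Anxa2 at 1.25 in unsorted BLM over sham cells. There, 3 of 8 tested genes of this list were at least 2-fold higher and 1 was lower, where 13.9% and 16.0% of all genes were, and the median was 0.34. The lower gene had 5 against 15 reads, with a counting interval of -3.10 to 0.25. The list holds inhibitors as well as receptors, so these counts give no direction for fibrin removal.

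Of the 4 protease-activated receptors, through which thrombin and other proteases signal to cells, 2 were higher in Lamp1-enriched cells and 1 lower, where 21.5% and 19.2% of all genes were. F2r, the main thrombin receptor, was at 1.57, F2rl3 at 2.66 from at most 82 reads in a sorted library, F2rl1 at -2.46, and F2rl2 at 0.62 and not called (edgeR adjusted p = 0.310). With TMM factors the treatments went opposite ways for F2rl2. Its log2 sort ratio was 2.04 in sham (counting interval 1.82 to 2.28) and -0.68 in BLM (-1.03 to -0.33). Scaling by total counts only adds 0.56 to this BLM ratio, and its counting interval would then include 0. The opposite direction in BLM thus depends on the scaling. F2r was at -0.53 in unsorted BLM over sham cells. Plasminogen and the fibrinogen chains, the substrates of the pathway, had 2 reads of Plg, 6 of Fga, 6 of Fgb and 9 of Fgg over all 6 libraries, too few to compare.

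**Figure D4:**
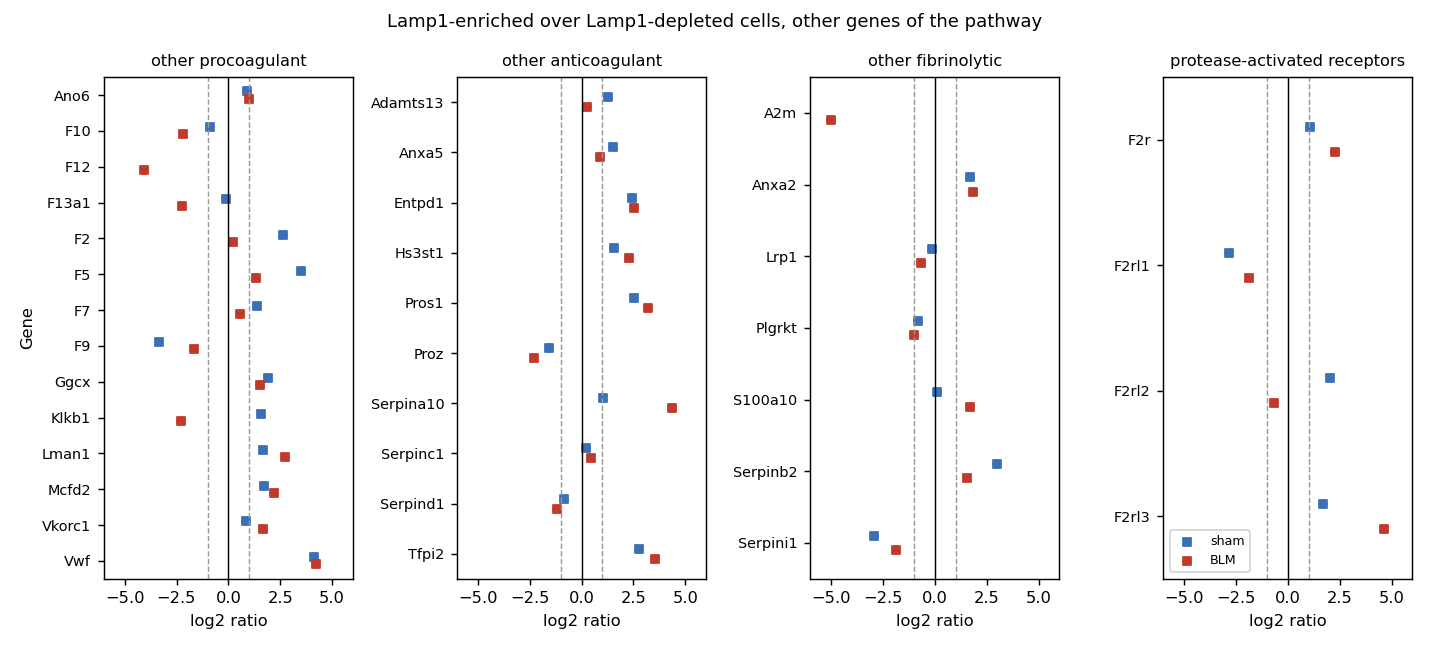
Log2 ratio of Lamp1-enriched over Lamp1-depleted cells for the other genes of the pathway that reached 10 reads in either library compared, in blue for sham and red for BLM, with dashed lines at 2-fold. Vwf lies farthest right among the procoagulant genes, at 4.13 in sham and 4.24 in BLM, and F10 lies left of 0 in both, at -0.88 and -2.20.

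The genes whose pattern over the 6 libraries was most like each member were named by the root mean square difference of centred log2 CPM, among 13362 genes with at least 200 reads in their highest library. The nearest to Thbd were Slc24a4 at 0.03, Ptprg at 0.07 and Klhl5 at 0.09. The nearest to Tfpi were Pcdhb22 at 0.07, Adamts9 at 0.10 and Sox17 at 0.13, and those to Plat were Ntn1 at 0.07, Sox17 at 0.08 and Ly6c1 at 0.10. Serpine2 lay nearest to Timp2 at 0.07, Hoxaas3 at 0.12 and Enpp2 at 0.13. F8 lay nearest to Mocs2 at 0.08, 4833413G10Rik at 0.10 and Senp8 at 0.10. The genes nearest to Procr were farther off, with Dab2 at 0.34, Ctsl at 0.37 and Nrp2 at 0.38. Procr had 11 and 22 reads in the Lamp1-depleted libraries, so that counting error enters these distances. F3 lay nearest to Speg at 0.26, Kazald1 at 0.27 and Nkx2-1 at 0.29, and Plau to Mertk at 0.12, Serpinb2 at 0.22 and Ccbe1 at 0.23. Plaur lay nearest to 5330406M23Rik at 0.11, 5830432E09Rik at 0.12 and Slc35c2 at 0.12. Among the members themselves, Tfpi and Plat were closest at 0.15, F3 was closest to Plau at 0.47 and next to Procr at 0.61, and Plaur was at least 1.37 from every other member. All of these values rest on the same 6 libraries with 1 common scaling, and such likeness is a description.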

How the data were processed

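Poly(A) RNA of lung cells (unsorted, Lamp1-enriched or Lamp1-depleted) was sequenced with 1 library for each of 6 conditions, and each sample took its condition from its label. The authors deposited unnormalized read counts per gene. The submitters' processing notes name Trimmomatic 0.36, STAR 2.5.2b, featureCounts, Subread 1.5.2, DESeq2 and the build GRCm38, and the strand setting was not given in the sources used here. Reads from a gene and an overlapping antisense gene can therefore not be told apart. Rows with no gene name in the table numbered 174 and took at most 0.0138% of the reads of a library.

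Counts were scaled by edgeR 4.0.16 TMM factors (R 4.3.3), which ranged from 0.699 to 1.19, for libraries of 30236120 to 52918696 reads. Log2 ratios were taken with 0.5 reads added as a prior where either library had at least 10 reads, and were called at a ratio of at least 2-fold. Their 95% intervals are Clopper-Pearson intervals of the share of reads, and those of differences between ratios are normal approximations with a quantile of 1.96; both cover counting error only. Lamp1-enriched and Lamp1-depleted cells were tested by edgeR's quasi-likelihood test, fitted to 4 sorted libraries and blocked by treatment, with filterByExpr and Benjamini-Hochberg adjustment over all genes. TMM factors were computed again for this fit, from these 4 libraries and the genes kept. Fitted values and sort ratios thus differ in scaling, and a fitted value can lie outside both sort ratios of a gene, as for Plaur. The residual degrees of freedom were 1, those of the prior were infinite, and the fit used a biological coefficient of variation of 0.316. DESeq2 1.42.0, Python 3.11.15, numpy 2.4.6, scipy 1.17.1, pandas 2.3.3 and matplotlib 3.10.9 were also used. Positions and exon lengths were taken from GENCODE release M21 for GRCm38, where 48970 of 49315 identifiers were found, and promoters from RefSeq. Printed promoter stretches stop before the first exonic base.

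The members and the gene and marker lists were chosen with earlier results of these data known, and the lists were written from general knowledge. Of the other genes of the pathway, the text names the 3 with the most reads in each list, Vwf, F5, F7, F10, F13a1, Pros1, F2r and those at a log2 ratio of at least 3 in size with at least 50 reads, together with the 3 genes nearest to each member in pattern and Gm26917 as a fact of the libraries. The value of 1 gene of the fibrinolytic list is not reported here, and it was left out of the counts of that list. Plg and the fibrinogen chains were named after their values were seen. Of 10 macrophage and monocyte markers, 9 were found by name. The alternatives tried were size factors from DESeq2, scaling by totals alone, a prior of 2 reads, counts thinned to 18636423 reads per library, calls at a log2 ratio of 2 or 3, a Wald test by DESeq2, no filter beyond 1 read, and a fit over all 6 libraries. Leaving out each library in turn, in the fit over all 6 libraries, was chosen after seeing the data. The program for the quasi-likelihood test was tested on simulated data.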

Additional observations from a re-analysis of the deposited data

Results flagged for a closer look

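Of the 9 members, 4 went in opposite directions between BLM and sham in different fractions, with counting intervals off 0 on both sides. By the same rule 24.4% of the 19055 genes tested in all 3 fractions did so. With 1 library per condition, the difference between fractions was not tested for any of them. Thbd, thrombomodulin, was at a log2 ratio of -0.80 in unsorted and -0.75 in Lamp1-depleted cells but at 0.13 in Lamp1-enriched cells. Tfpi, the inhibitor of tissue factor, was at -0.19 in unsorted and -0.38 in Lamp1-depleted cells and at 0.79 in Lamp1-enriched cells. Plau, urokinase, was at 1.13 in unsorted and at -0.72 in Lamp1-enriched cells. Serpine2, protease nexin, was at 0.21 in unsorted and 0.13 in Lamp1-enriched cells and at -0.54 in Lamp1-depleted cells. With total counts in place of TMM factors, Serpine2 was at -0.06 in unsorted cells and at -1.25 in Lamp1-depleted cells.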

How the results depend on the processing

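Of 359 values under alternatives, 289 kept their call or stayed close to the reported value, and no member changed the direction of a call. With total counts only, the members at least 2-fold higher in BLM numbered 1 of 9 in unsorted cells, with 1 lower, and 1 in Lamp1-depleted cells, with 4 lower; 0 were lower in Lamp1-enriched against Lamp1-depleted BLM cells, where Plaur was at -0.91, and the quasi-likelihood test called 0 lower. F8 (adjusted p = 0.0918) and Plaur (0.261) lost their calls in it. In Lamp1-depleted cells, total counts put Thbd at -1.47, Tfpi at -1.09, Plau at -0.66 and Plaur at -0.53 in BLM over sham. Thinned counts left 0 lower in Lamp1-depleted cells, with F8 at -0.92. At a log2 ratio of 2 there was 1 member higher in unsorted and 1 in Lamp1-depleted cells, 0 lower in Lamp1-depleted cells, and 4 higher and 0 lower between BLM fractions; sham fractions gave 0 lower. At a log2 ratio of 3 there were 0 higher in unsorted cells, 0 higher and 0 lower in Lamp1-depleted cells, 3 higher and 0 lower between sham fractions and 4 higher and 0 lower between BLM fractions. The stricter thresholds lower the counts by construction. Total counts shift all log2 ratios of a comparison by the same amount. It was -0.26 for BLM over sham in unsorted and -0.72 in Lamp1-depleted cells, and 0.56 between BLM fractions. For the other alternatives, and for the calls lost in the quasi-likelihood test, the cause was not tested.

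When each library was left out in turn (leave-one-out) of the quasi-likelihood fit over all 6, the members called higher ranged from 4, without sham Lamp1-enriched, to 8, and those called lower from 0, without BLM Lamp1-enriched, to 1. A fraction left with 1 library was assumed to vary like the others. Over all genes, the test called 4422 higher and 3964 lower, but 2872 and 1564 with total counts only. Within a treatment no replicate could be left out, and the only pairing of libraries was the treatment block of the quasi-likelihood test. Depth limits F3, Procr and F8 most, which had 11 to 22 reads in at least 1 Lamp1-depleted library.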
